A study of Mus musculus with 2 samples.

Results

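The Rhox genes form a cluster of reproductive homeobox genes on the mouse X chromosome, and 7 of them are described here: Rhox1, Rhox2a, Rhox2d, Rhox5, Rhox6, Rhox9 and Rhox13. They were chosen by their RPKM in these 2 libraries as the better measured genes of the cluster, so their levels and their differences between the libraries are a description and carry no test. The 7 members are among 28 Rhox genes that have a value, out of 25749 Ensembl genes measured. Of the 42 Rhox genes in the GENCODE M21 annotation, the other 14 have no value. The choice followed no fixed level. Rhox9 is a member at 0.721 RPKM in its higher library, whereas Rhox10, which reached 12.5 RPKM, is not a member and is given beside the others.

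The cells were of the mouse embryonic stem cell line E14.1. One library came from cells with wild-type AHCY (WT) and one from cells in which a threonine of AHCY is replaced by alanine (T136A); no other allele or treatment is given for either. AHCY breaks down S-adenosylhomocysteine, the by-product of methyl transfer that inhibits methyltransferases when it builds up. How the T136A cells were made, and whether they are a single clone, is not given in the sources used here. Each genotype had 1 library, so culture, clone and genotype cannot be told apart, and every statement of higher or lower refers to these 2 libraries. Values are RPKM, reads per kilobase of exon and scaled to the reads of the library, and the totals behind them were 17506154 reads for WT and 18396840 reads for T136A. Because whole reads could be recovered for every Rhox gene, read numbers are given with the RPKM, and their 95% intervals cover counting error only.

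RHOX proteins are transcription factors with a homeodomain of the paired-like class, and they act mainly in the testis, ovary, epididymis and placenta. The genes lie in an alpha, a beta and a gamma subcluster (Rhox1 to Rhox4, Rhox5 to Rhox9, and Rhox10 to Rhox13), in which Rhox2, Rhox3 and Rhox4 have been duplicated into strings of near-identical copies. In the embryo and in most somatic tissues the cluster is kept silent by DNA methylation and repressive histone marks, and cells lacking DNA methyltransferases are known to release it. Rhox5, first described as Pem, is the founding gene, and it is transcribed in embryonic stem cells and extraembryonic tissue as well as in Sertoli cells.

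The starts of these genes are shown with their CG pairs, the letters that DNA methylation acts on. RefSeq windows of 300 bases (250 before the start and 50 after, GRCm38.p6) were found for 28 Rhox genes, among them 5 of the 7 members. None was matched for Rhox6 and Rhox9. These 28 are not the same set as the 28 with a value. Rhox3a and Rhox12, for example, have a window and no value, and Rhox7a has a value and no window. The windows held between 0 and 12 CG pairs, beside a median of 7 over all 32851 windows. Among the members, Rhox2a held 8, Rhox2d 6, Rhox5 and Rhox13 5 each and Rhox1 0. The 250 bases before the start are shown for the members with a window and for Gm9, the gene next to the cluster that is described with them below, each 5′ to 3′ on the strand of its gene, with every CG in capitals.
Gm9: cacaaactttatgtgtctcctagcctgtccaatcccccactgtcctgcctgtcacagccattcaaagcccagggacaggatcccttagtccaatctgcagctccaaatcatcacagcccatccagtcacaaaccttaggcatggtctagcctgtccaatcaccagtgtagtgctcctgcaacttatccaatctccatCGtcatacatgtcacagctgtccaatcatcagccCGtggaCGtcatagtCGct
Rhox1: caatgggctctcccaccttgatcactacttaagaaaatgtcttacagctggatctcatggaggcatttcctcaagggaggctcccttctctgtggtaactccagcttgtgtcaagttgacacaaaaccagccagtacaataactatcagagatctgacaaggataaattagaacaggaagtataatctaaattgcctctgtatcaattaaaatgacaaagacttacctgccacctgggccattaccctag
Rhox2a: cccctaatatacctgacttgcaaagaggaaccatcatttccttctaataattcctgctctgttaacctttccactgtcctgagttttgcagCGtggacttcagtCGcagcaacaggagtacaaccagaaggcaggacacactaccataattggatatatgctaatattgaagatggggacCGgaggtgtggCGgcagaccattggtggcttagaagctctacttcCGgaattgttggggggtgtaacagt
Rhox2d: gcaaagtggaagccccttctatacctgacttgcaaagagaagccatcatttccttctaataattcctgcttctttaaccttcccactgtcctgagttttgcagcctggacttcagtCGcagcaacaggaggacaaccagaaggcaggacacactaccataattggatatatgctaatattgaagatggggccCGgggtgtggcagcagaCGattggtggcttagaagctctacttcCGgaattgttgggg
Rhox5: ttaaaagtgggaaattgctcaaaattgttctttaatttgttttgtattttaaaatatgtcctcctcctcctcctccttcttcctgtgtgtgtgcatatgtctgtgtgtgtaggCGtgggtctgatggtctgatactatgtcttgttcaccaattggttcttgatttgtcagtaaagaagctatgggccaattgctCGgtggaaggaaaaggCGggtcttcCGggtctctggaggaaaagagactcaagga
Rhox13: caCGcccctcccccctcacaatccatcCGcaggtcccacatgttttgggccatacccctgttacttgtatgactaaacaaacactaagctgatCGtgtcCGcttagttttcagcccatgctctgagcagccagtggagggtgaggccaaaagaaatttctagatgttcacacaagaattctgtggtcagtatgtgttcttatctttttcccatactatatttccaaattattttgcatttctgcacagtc
They lie at chrX:37211042-37211291 (minus strand) for Gm9, chrX:37222259-37222508 (minus) for Rhox1, chrX:37244742-37244991 (plus) for Rhox2a, chrX:37493160-37493409 (plus) for Rhox2d, chrX:37754358-37754607 (plus) for Rhox5 and chrX:38120590-38120839 (plus) for Rhox13. The Rhox1 stretch has no CG at all, whereas Rhox2a and Rhox2d have 5 and 4, Rhox5 and Rhox13 have 4 each, and Gm9 has 4. The RefSeq start of Rhox5 lies 50.2 kb before the start of the GENCODE M21 model whose exon length fits the deposited values, and which start these cells use was not measured.

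Across the 28 Rhox windows, 7 motifs were searched on both strands, and 6 are given here. CCGGAA, the core bound by ETS factors, was found in 8 Rhox windows, 7 of them the windows of Rhox2 copies and 1 that of Rhox5, and in 14.9% of all windows. In all 7 Rhox2 windows it forms the palindrome TTCCGGAA, so that the matches on the 2 strands overlap; 0.712% of all windows hold that palindrome. The Rhox2 windows are 94% to 100% identical to each other and are therefore copies of 1 observation. In Rhox2a the palindrome begins 28 bases before the start and in Rhox2d 17 bases before it, readable above as the last ttcCGgaa of each line. The E2F letters GCGGGAA were found in 1 Rhox window, that of the pseudogene Rhox11-ps2 (4.6% of all windows). CACGTG was found in 5 (7.15%), GGGCGG in 8 (35.7%), TATAAA in 1 (13.6%) and the homeodomain letters TAATTA in 0 (5.29%). The CACGTG windows are all of Rhox4 copies, and the GGGCGG windows are of Rhox4 copies and Rhox12, so they are not separate observations either. All motif counts are matches of letters, and no binding was measured.

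Rhox5 stood far above the rest of the cluster in both libraries. It had 218 reads in WT and 2151 in T136A, which is 16.5 and 155 RPKM. The T136A value was 9.39 times the WT value (95% counting interval 8.16 to 10.8). By level, 86.4% of all genes lay below Rhox5 in WT and 98.6% in T136A. It exceeded the next highest Rhox gene, Rhox13, 7.67-fold in WT and 7.81-fold in T136A. Rhox5 thus kept its lead while the genes below it were higher too, and it supplied 66.5% of the reads on Rhox genes in WT and 67.7% in T136A.

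**Figure D1:**
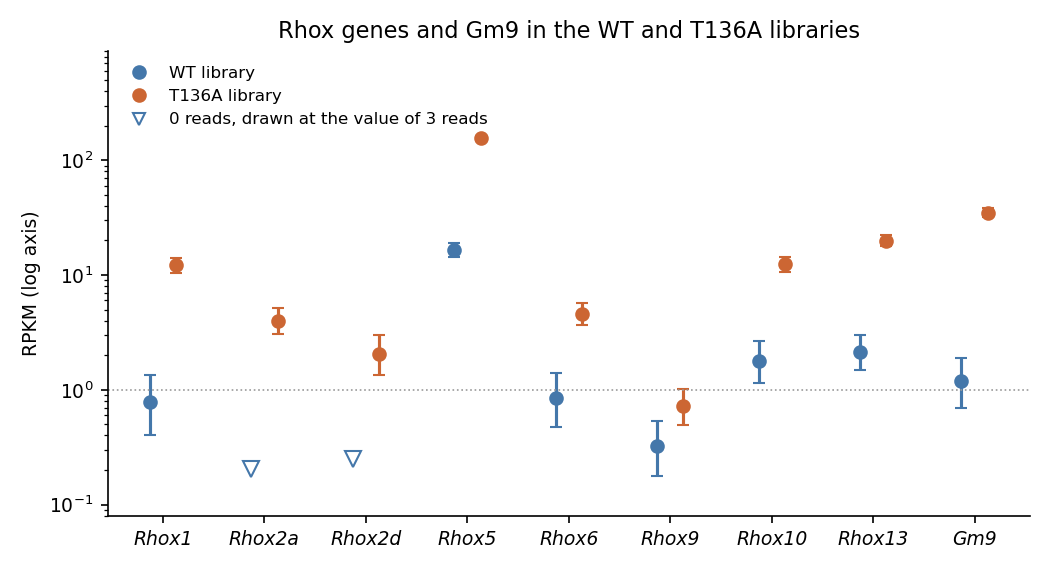
RPKM of the 7 members, Rhox10 and Gm9 in the WT library (blue) and the T136A library (orange) on a log axis, with bars for the 95% Poisson interval of the reads, open triangles for 0 reads drawn at the value of 3 reads, and a dotted line at 1 RPKM. Each gene is higher in T136A, from 0.321 to 0.721 RPKM for Rhox9 up to 16.5 to 155 RPKM for Rhox5.

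Rhox1, at the outer edge of the alpha subcluster, had 12 reads in WT and 197 in T136A, or 0.776 and 12.1 RPKM. Its ratio of 15.6 had a counting interval of 8.74 to 30.8, so that it overlapped the interval of Rhox5 although its point value was higher. The gene encodes a RHOX factor of the reproductive tract and spans chrX:37213804-37222258 (minus strand, GRCm38). In WT it stood below 1 RPKM and so entered the counts of measured genes through T136A alone.

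The members of the Rhox2 family had no read in WT. Rhox2a had 62 reads in T136A (3.99 RPKM) and Rhox2d 26 reads (2.06 RPKM). With the WT value set to 3 reads per library, the ratio was 19.7 for Rhox2a and 8.25 for Rhox2d. These ratios leave out counting error, and the 95% upper limit of 0 reads is 3.69, so they are not strict lower limits. The 8 Rhox2 copies with a value, Rhox2a to Rhox2h, all had 0 reads in WT and between 3 and 62 in T136A. Together they had a ratio of 44.7 against 3 reads set over the group in WT, and Rhox2a and Rhox2d supplied 62.4% of their T136A reads. The pseudogene Rhox2-ps, not among these copies, had 2 reads in WT and 6 in T136A, or 0.355 and 1.01 RPKM. Its ratio of 2.85 had a counting interval of 0.510 to 28.9, which includes 1.

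The split of these reads among the copies is uncertain. Of the 50-base windows of Rhox2a transcripts, 8.90% occur in the transcripts of no other gene, and for Rhox2d the share is 55.4%. Over the 8 copies the share ran from 0% for Rhox2e to 55.4%, while for the members outside Rhox2 it ran from 83.5% for Rhox6, whose shared windows are all with Rhox9, to 100% for Rhox1, Rhox5 and Rhox13. Neither the read length nor the treatment of reads that match several places is given in the sources used here. The values of single copies are therefore uncertain. Their sum is uncertain too, since, depending on that treatment, it could count a read more than once or leave reads out. The 6 Rhox4 copies with a value, whose windows are 6.29% to 30.6% their own, had 0 reads in WT and 10 in T136A, at most 3 per copy. Rhox3f, the one Rhox3 copy with a value, was at 0 in both.

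**Figure D2:**
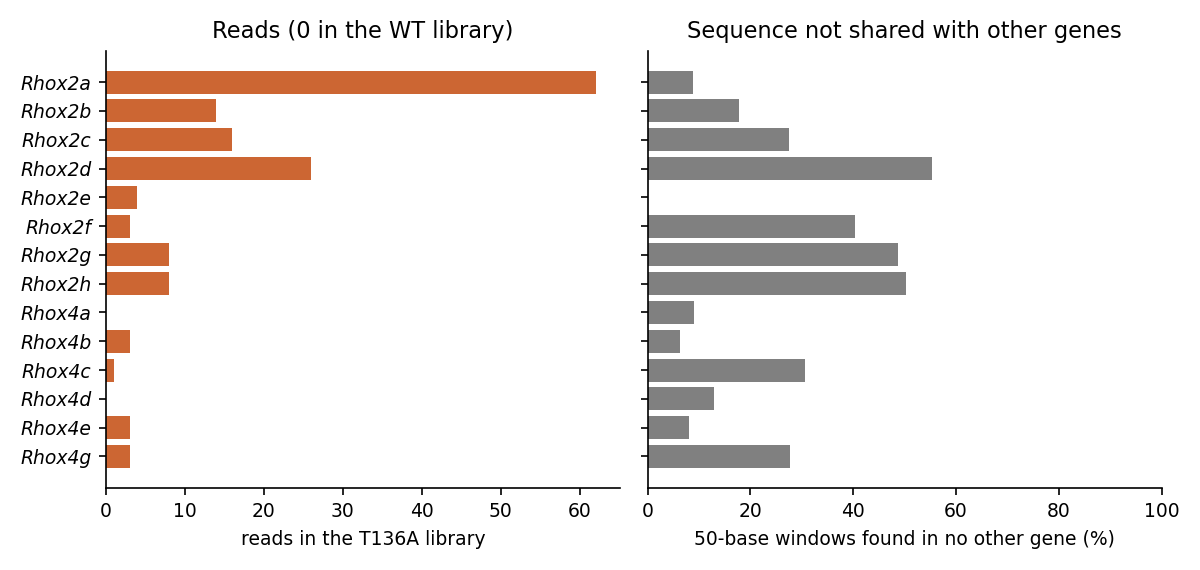
Reads in the T136A library for each Rhox2 and Rhox4 copy (left) and the percentage of its 50-base transcript windows found in no other gene (right). Rhox2a has the most reads, 62, with 8.90% of its windows unshared; all of these copies have 0 reads in WT.

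In the beta subcluster, Rhox6 and Rhox9, a pair of related genes known from placenta and germ cells, had lower ratios than Rhox5. Rhox6 had 15 reads in WT and 85 in T136A, or 0.848 and 4.57 RPKM, a ratio of 5.39 (3.09 to 10.1). Rhox9 had 14 and 33 reads, or 0.321 and 0.721 RPKM, a ratio of 2.24 (1.17 to 4.54). It stayed below 1 RPKM in both libraries, and on the scale used for counting, log2 of RPKM plus 1, it differed by 0.38. The counting interval of the Rhox6 ratio overlapped that of Rhox5, and that of the Rhox9 ratio ended below the lower limit of the Rhox5 ratio. Of the Rhox9 windows, 93.7% are found in no other gene.

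The other beta genes with a value are the Rhox7 copies, which are not members and share sequence among themselves. Rhox7b had 1 read in WT and 18 in T136A, and Rhox7a had 0 and 9. The pseudogene Rhox7-ps1, which lies beyond Rhox13, had 0 and 17 reads (1.15 RPKM in T136A), a ratio of 5.39 against 3 reads. Rhox7-ps2 had 8 and 17 reads, or 1.42 and 2.87 RPKM, a ratio of 2.02 whose counting interval of 0.827 to 5.41 includes 1.

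In the gamma subcluster, Rhox13, a germ cell gene of the testis and fetal ovary at chrX:38121219-38129967 (plus strand), had 33 reads in WT and 320 in T136A. Its level was 2.15 RPKM in WT against 19.9 RPKM in T136A, a ratio of 9.23 (6.44 to 13.6), close to that of Rhox5 and with an overlapping interval. Rhox10, a factor of early spermatogenic cells that is not a member, had 24 and 175 reads, or 1.80 and 12.5 RPKM, a ratio of 6.94 (4.51 to 11.1). Rhox11 was the one Rhox gene with the opposite sign, at 1 read in WT and 0 in T136A, which is too few reads to give a ratio.

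**Figure D3:**
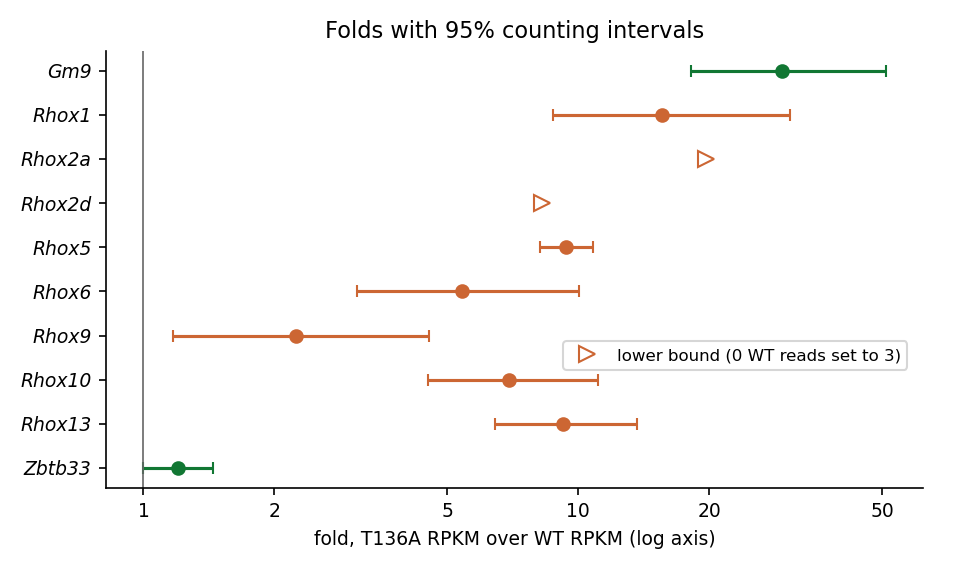
Ratio of T136A RPKM to WT RPKM on a log axis for the members, Rhox10, Gm9 and Zbtb33, with 95% exact counting intervals; open arrowheads are lower bounds for genes with 0 WT reads. Gm9 is at 29.4, Rhox1, Rhox5 and Rhox13 are between 9.23 and 15.6, Rhox9 is at 2.24 and Zbtb33 at 1.20.

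The order of the levels of the members and Rhox10 within each library follows from RPKM, which is per exon length. Other Rhox genes, such as Rhox7-ps2, are left out of it. In WT it was Rhox5, Rhox13, Rhox10, Rhox6, Rhox1 and Rhox9, with Rhox2a and Rhox2d listed at 0. Only Rhox5 (14.4 to 18.9 RPKM) stood clear of all others by its Poisson interval, since Rhox13 (1.48 to 3.02) overlapped Rhox10, Rhox10 overlapped Rhox6 and Rhox1, and those overlapped Rhox9 (0.176 to 0.539). In T136A it was Rhox5 (149 to 162 RPKM), Rhox13 (17.7 to 22.2), Rhox10 (10.7 to 14.5), Rhox1 (10.5 to 13.9), Rhox6 (3.65 to 5.66), Rhox2a (3.06 to 5.12), Rhox2d (1.35 to 3.02) and Rhox9 (0.496 to 1.01). There the intervals of Rhox10 and Rhox1 overlapped, as did those of Rhox6 and Rhox2a, and the remaining neighbours stood apart by reads. The places of Rhox2a and Rhox2d rest on the uncertain split of reads among the copies, which these intervals do not cover. Rhox1 and Rhox6, which could not be told apart by reads in WT, were separated in T136A.

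Counted together, 6 of the 7 members reached 1 RPKM in at least 1 library and all 6 were at least 2-fold higher in T136A on the log2 scale with 1 RPKM added; Rhox9 did not reach the minimum. Among all 12320 genes at or above 1 RPKM, 3.13% were at least 2-fold higher and 3.10% at least 2-fold lower. With no minimum, 6 of 7 members were at least 2-fold higher, beside 1.5% of 25740 genes. Genes below 1 RPKM in both libraries cannot reach 2-fold with 1 RPKM added, so neither count could change. The lower share reflects only the larger number of genes it is taken over. The counting interval of the ratio lay above 1 for Rhox1, Rhox5, Rhox6 and Rhox13, as it did for 31.7% of 10771 genes with recovered reads at or above 1 RPKM. That of Rhox9, below this minimum, also lay above 1. The 31.7% includes genes with no read in WT, and by that rule Rhox2a and Rhox2d lay above 1 too. Since these values chose the members, nothing is read from that contrast. Of the 6, Rhox5 and Rhox13 reached 1 RPKM in WT, and the other 4 passed through T136A alone. Genes that pass in that way are higher by construction: of the 629 genes below 1 RPKM in WT and at or above it in T136A, 27.2% were at least 2-fold higher. By log2 ratio, Rhox5 ranked 6, Rhox1 8, Rhox13 10, Rhox2a 23, Rhox2d 87 and Rhox6 93 from the top of the 12320 genes.

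**Figure D4:**
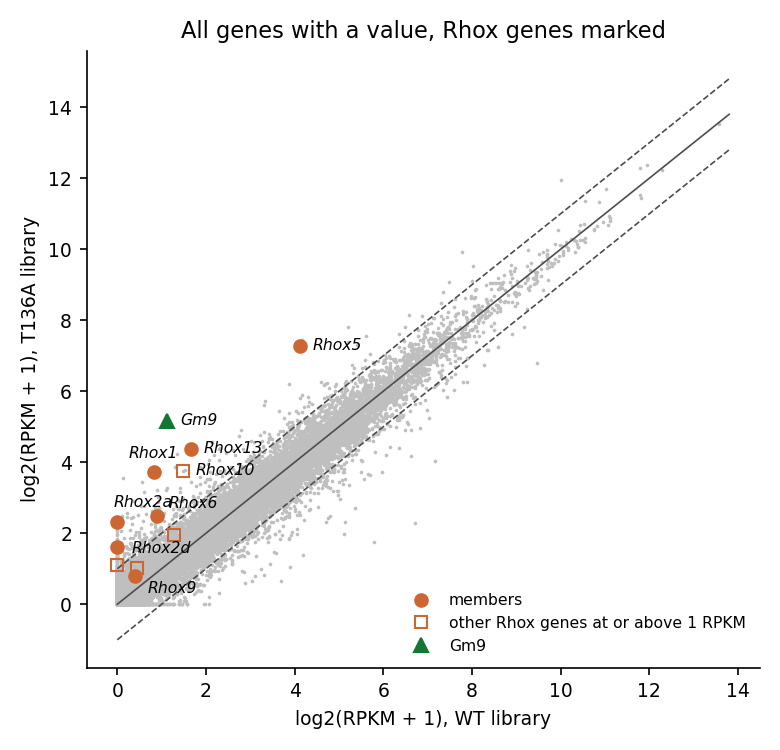
Log2 of RPKM plus 1 in the WT library (horizontal) and in the T136A library (vertical) for all genes with a value, with members as filled circles, other Rhox genes at or above 1 RPKM as open squares and Gm9 as a triangle; the solid line marks equality and the dashed lines 2-fold. Rhox5, at 16.5 and 155 RPKM, lies above the cloud of genes, and Rhox9 lies within it.

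Over all 28 Rhox genes with a value, 10 had any read in WT and 23 in T136A. The value was higher in T136A for 23, lower for 1 and 0 in both for 4; over all genes, 43.9% were higher in T136A. Reads in T136A with none in WT were seen for 14 Rhox genes, which held for 9.8% of all genes. The 14 were the 8 Rhox2 copies, 4 Rhox4 copies, Rhox7a and Rhox7-ps1. Such copies share sequence, so neither the 14 nor the 23 is a number of separate observations. At or above 1 RPKM there were 10 Rhox genes, 8 of them at least 2-fold higher and 0 lower, beside 3.13% higher among all genes. Their median log2 ratio was 1.94 and that of all genes -0.03. Of the 10, 6 passed the minimum through T136A alone and 6 are members chosen by these values, so the count and the median are no support for a difference. All reads on Rhox genes came to 328 in WT and 3179 in T136A, a ratio per read of the library of 9.22 (8.23 to 10.4). Without Rhox5 they came to 110 and 1028, a ratio of 8.89 (7.30 to 10.9), so the sum does not rest on that gene. The alpha subcluster held 14 reads in WT and 354 in T136A, the beta subcluster 256 and 2330 and the gamma subcluster 58 and 495.

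Most genes beside the cluster had values close to each other in the 2 libraries. Of the 10 annotated protein-coding genes nearest to each edge, 13 reached 1 RPKM, and 1 of them was at least 2-fold higher and 0 lower. That gene was Gm9, a predicted protein-coding gene 2.76 kb before Rhox1. It had 17 reads in WT and 526 in T136A, or 1.19 and 35.0 RPKM, a ratio of 29.4 (18.2 to 50.9), larger than that of any Rhox gene with at least 10 reads in WT. All of its 50-base windows are its own. Next to it, Rnf113a1, a splicing factor gene 21.3 kb from the cluster, stood at 7.85 and 6.58 RPKM, and Ndufa1, a subunit of respiratory complex I at 22.6 kb, at 82.9 and 79.5 RPKM. On the other side, the first gene was Zbtb33, whose product Kaiso binds methylated DNA, 59.8 kb after Rhox13, at 2.33 and 2.80 RPKM, a ratio of 1.20 (0.999 to 1.45). The lowest flanking gene was the lysosomal gene Lamp2, at 7.20 and 4.38 RPKM, a log2 ratio of -0.61. The 12 flanking genes other than Gm9 had log2 ratios up to 0.58, and the median with Gm9 was 0.09.

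**Figure D5:**
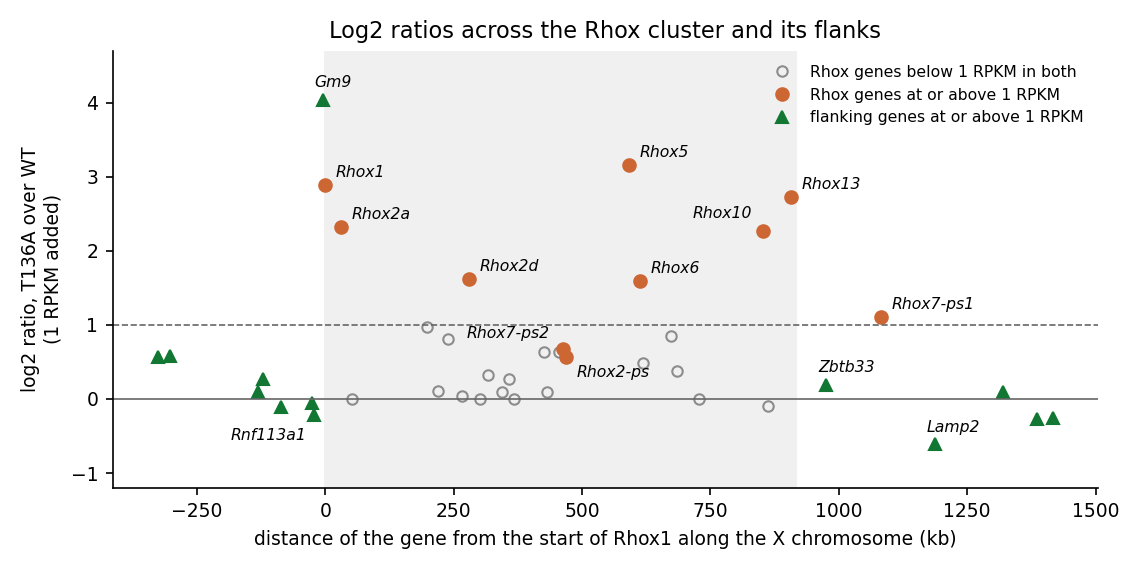
Log2 ratio of T136A to WT (1 RPKM added) by distance of each gene from the start of Rhox1 in kb, with the stretch from Rhox1 to Rhox13 shaded; filled circles are Rhox genes at or above 1 RPKM, open circles Rhox genes below it, triangles flanking genes, and the dashed line marks 2-fold. Genes past the 2-fold line run from Gm9 to Rhox13, with Rhox7-ps1 (1.10) beyond Zbtb33, and the flanking genes other than Gm9 lie between -0.61 and 0.58.

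For the X chromosome around the cluster, the same values were as follows. Of 449 X-linked genes outside Rhox at or above 1 RPKM, 9.35% were at least 2-fold higher and 3.34% at least 2-fold lower, and their median log2 ratio was 0.01. Among the X-linked germline and placenta families chosen for comparison, with earlier results for several of them known, 12 of 16 measured genes were at least 2-fold higher and 0 lower, with a median of 1.79. Of these 16, 10 passed the minimum through T136A alone, and all 10 are among the 12, so the filter in part fixed that count. Xlr3c, of a family active in meiotic germ cells, was at 0.288 and 18.9 RPKM, Pnma5 at 0.293 and 6.58, and Xlr5c at 0.0343 and 4.18. Taf7l (1.76 and 1.09 RPKM), Tex13b (2.14 and 2.21) and Tex11 (3.48 and 4.71) were at the lower end. Xlr copies also share sequence.

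Germline genes known to be held silent by promoter DNA methylation in somatic cells split; some of them, such as Taf7l and Tex11, are X-linked and also in the list above. Of the 24 measured, 10 were higher in T136A by 2-fold or more on the log2 scale with 1 RPKM added and 1 was lower. Over all measured genes these shares were 3.13% and 3.10%. The median log2 ratio of the list was 0.63, beside -0.03 over all measured genes. Of the 10, 2 reached 1 RPKM through T136A alone. This list was written with earlier results of these data known, so its count is a description. The highest were Dazl, which binds RNA in germ cells (1.24 and 33.3 RPKM), Tuba3a, a testis tubulin (17.0 and 172 RPKM), whose near-identical copy Tuba3b makes its value uncertain, and Fkbp6, of the piRNA pathway (1.56 and 18.0 RPKM). The lowest were Sycp3, of the meiotic chromosome axis (14.7 and 6.54 RPKM), Mael, of the piRNA pathway (12.7 and 7.81 RPKM), and the cohesin subunit Smc1b (3.62 and 2.40 RPKM). The log2 ratios of Rhox5 (3.16) and Rhox13 (2.73) lay below the highest of this list, 3.94 for Dazl.

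Enzymes and cofactors that act in the repression of such genes, or remove DNA methylation (Tet1 and Tet2), were listed too. Of 31 measured, 1 was at least 2-fold higher and 0 lower, close to the 3.13% and 3.10% of all genes, and the median log2 ratio was -0.04. The higher one was Dnmt3b, which sets new DNA methylation (3.48 and 8.45 RPKM), followed by Setdb1, a histone methyltransferase of retroelement silencing (10.5 and 16.3 RPKM), and Dnmt3a (2.76 and 4.42 RPKM). At the lower end stood E2f6, a repressor of germline genes (10.5 and 5.79 RPKM), and the heterochromatin protein gene Cbx5 (28.8 and 17.7 RPKM). E2f6 had 1040 reads in WT and 603 in T136A, 0.552 times the WT level (0.498 to 0.611). Of 5 measured linker histones, 1 was at least 2-fold lower, H1f0, at 193 and 65.1 RPKM, and the others had log2 ratios from -0.31 for H1fx to 0.60 for Hist1h1b.

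ETS factors and other reported regulators of Rhox5 included 1 gene at least 2-fold higher and 0 lower among 11 measured. Over all measured genes the shares were 3.13% and 3.10%. The median log2 ratio of this list was 0.21. Etv4, an ETS factor, stood at 24.6 RPKM in WT against 72.1 RPKM in T136A, a ratio of 2.93 (2.75 to 3.12), followed by Ets2 (7.73 and 11.6 RPKM) and Elk4 (0.749 and 1.34 RPKM). The lowest were Sp1 (21.5 and 14.5 RPKM), Nr0b1 (44.5 and 31.0 RPKM) and Gabpb1 (8.25 and 6.21 RPKM). Of genes reported to respond to RHOX5 in Sertoli cells, 3 of 7 found were measured and 0 were 2-fold apart, namely Adipor2 (41.7 and 25.5 RPKM), Prkaa2 (1.39 and 1.00) and Rbp4 (2.73 and 3.23). A higher Rhox5 level thus went with values within 2-fold for these 3 genes.

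Markers of other cell types were compared, since several of them transcribe Rhox genes. All 7 embryonic stem cell markers were measured, with a summed level of 4017 RPKM in WT against 3776 RPKM in T136A, and 0 were 2-fold apart. Of 10 trophoblast markers found, 3 reached 1 RPKM, and the sum over all 10 was 64.6 RPKM in WT against 32.8 RPKM in T136A, mostly Tfap2c (57.7 and 26.5), which stem cells also express. The other measured ones went opposite ways, with Esx1 at 4.40 and 2.25 RPKM and Ascl2 at 1.44 and 2.88 RPKM (41 and 86 reads; counting interval of the ratio 1.36 to 2.97). The defining trophoblast genes Cdx2 (0.0253 and 0.0774 RPKM) and Elf5 (0.00972 and 0.0185 RPKM) were near 0, and Plac1 was at 0 in WT and 0.0390 RPKM in T136A. Sertoli and granulosa markers summed to 1.28 and 2.14 RPKM, with 1 of 7 found at or above 1 RPKM. Fibroblast feeder markers summed to 4.43 and 7.88 RPKM, with 2 of 5 measured.

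Markers of primitive endoderm, a lineage in which Rhox5 is strongly transcribed, included 1 measured gene past 2-fold on the log2 scale with 1 RPKM added. Of 12 markers, 7 were measured, of which Col4a1 was at least 2-fold higher and 0 were lower, beside 3.13% of all measured genes higher. All 7 had log2 ratios above 0, and 2 of them, Sox17 and Gata6, reached 1 RPKM through T136A alone. The sum over all 12 was 108 RPKM in WT against 135 RPKM in T136A, most of it from Sparc (91.7 and 106 RPKM). Col4a1 was at 3.57 and 9.80 RPKM, Sox17 at 0.551 and 1.38 RPKM and Gata6 at 0.805 and 1.68 RPKM, while Afp was at 0 and 0.0968 RPKM. As plain ratios, Sox17 (2.50) and Gata6 (2.09) were past 2-fold too. Primordial germ cell markers went both ways, with Dazl and Dnd1 (8.22 and 18.4 RPKM) at least 2-fold higher and Prdm1 (3.97 and 1.10 RPKM) lower among 8 measured. The part of these cell types in the Rhox levels was not tested, and in bulk RNA more cells of a type and more RNA per cell cannot be told apart.

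The genes outside the cluster whose pair of values lay closest to that of Rhox5, by Euclidean distance of log2(RPKM + 1) over the 2 libraries, were Tuba3a, Tmsb4x, S100a11, L1td1 and Sohlh2. Tuba3a, at 17.0 and 172 RPKM, was at a distance of 0.15. The next, the X-linked actin-binding gene Tmsb4x, was at 13.6 and 72.5 RPKM and a distance of 1.12, and the others followed at up to 1.22. With 2 libraries this likeness is a description of 2 values. Ahcy, the gene that carries the replacement, stood at 52.9 RPKM in WT against 56.6 RPKM in T136A; its level does not check the labels, since a replaced amino acid need not change it.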

How the data were processed

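The authors deposited 1 table per library, made by counting reads per Ensembl gene and dividing by exon length and library total (RPKM), as far as the values show. No label names the unit. It was read from the values, since value times union exon length (GENCODE M21, GRCm38) times 1 constant gave whole reads, within 0.01, for 89.9% of values in WT and 90.0% in T136A. The submitters' processing notes name CASAVA 1.8 and mm9, with no role; how reads were aligned and counted was not given in the sources used here. Symbols matched 25696 of 25749 identifiers, and 25740 genes remained with 1 row per symbol. Measured genes had at least 1 RPKM in 1 library. With 1 library per genotype no test was made. Intervals are exact Poisson (levels) or exact conditional binomial (ratios) at 95%, for counting error only, since reads are not independent molecules. For ratios, a WT value of 0 was set to 3 reads. Promoter windows are from RefSeq GRCm38.p6; transcript windows are from GENCODE M21. The members, lists and motifs were chosen with earlier results of these data known. Genes were named by rule: every Rhox gene, the flanking genes at the ends and next to the cluster, up to 3 genes at each end of a list, the 5 genes nearest to Rhox5, and Ahcy. Ndufa1, Cdx2, Elf5, Plac1, Afp, Xlr5c and Tex13b were named after their values were seen where that rule leaves them out. Some genes and a motif covered by these rules are not reported here. The steps were checked on simulated data. Python 3.11.15, pandas 2.3.3, scipy 1.17.1 and Biopython 1.88 were used.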

Additional observations from a re-analysis of the deposited data

How the results depend on the processing

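No paired analysis was possible because each genotype had 1 library, and leaving out a library was not possible for the same reason. The members at least 2-fold higher numbered 6, and 3 with 5 RPKM added or with a minimum of 5 RPKM (Rhox1, Rhox5 and Rhox13); those of all Rhox genes numbered 8, and 4 under either change. Copies summed by family gave 7 of 9. With 20 flanking genes on each side 2 were higher, Gm9 and Dcaf12l1 (log2 ratio 1.00). Over all genes the count of 386 became 723 with 0.1 RPKM added, 101 with 5 RPKM added and 209 with a minimum of 5 RPKM. Median-of-ratios, upper-quartile and quantile scaling left the counts of members, Rhox genes and flanking genes as they were and moved the median log2 ratio of all genes from -0.03 to between -0.01 and 0.02. All 120 values of single Rhox genes under the alternatives kept their sign. Of these, 30, all with 0.1 or 5 RPKM added, left a counting interval of the main log2 ratio. That interval has 1 RPKM added and is not the interval of the plain ratio given above. Another added constant cannot change the sign, so the sign could move only under the 3 scalings. Of 182 list counts, 16 moved by more than 1.5 times, 13 of them with another added constant and 3 with another minimum. Windows of 36 or 75 bases, tried after seeing the data, gave Rhox2a 3.68% and 21.7% unshared windows and Rhox2d 39.9% and 74.5%. Depth limits the ratios of Rhox1, Rhox6 and Rhox9, which rest on 12 to 15 WT reads.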

Other observations

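Other homeobox genes of the paired-like class did not share one direction. Of 31 found, 8 were measured, and their median log2 ratio was -0.10. Of the 8, 3 were higher in T136A by at least 2-fold and 1 lower, beside 3.13% and 3.10% of all measured genes. Among all genes that reached 1 RPKM through T136A alone, 27.2% were at least 2-fold higher. The 3 higher homeobox genes all passed in that way. They were Crxos, expressed in early embryos (0.444 RPKM in WT against 3.42 RPKM in T136A), Obox6 of the oocyte-specific family (0.255 and 1.98 RPKM), and Prrx2 (0.932 and 3.22 RPKM). The lower one was Otx2, a factor of the epiblast and forebrain (a log2 ratio of -1.21, with 5.06 RPKM left in T136A). Esx1, which like Rhox genes is an X-linked homeobox gene of placenta and testis, stood at 4.40 RPKM in WT against 2.25 RPKM in T136A, or -0.74 as a log2 ratio, opposite in sign to the members. No test of these differences was possible with 1 library per genotype.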
